A study of Homo sapiens with 4 samples.

Results

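The gRNA2 pool and the control (CTL) pool of MDA-MB-468 mammospheres, both without doxycycline, were compared at the RNA level, using 2 of the 4 libraries of the series. MDA-MB-468 is an established basal-like triple-negative breast cancer line, and mammospheres are floating spheres grown from its cells without attachment. The cells carried Cas9 and a guide whose expression is switched on by doxycycline, and sorting for the fluorescent markers of both vectors gave pools rather than single clones. CTL cells carried the control vector or guide and gRNA2 cells the second TCOF1 guide. The labels give both libraries used here as wild type with no treatment, CTL+dox as wild type with doxycycline, and gRNA2+dox as a TCOF1 knockout induced by doxycycline. Each condition had 1 library, made from several pooled culture plates, so no variation between cultures could be measured, no test was possible and no p-value is given. The 95% intervals are exact (Clopper-Pearson) and come from the reads of the libraries compared, so they hold counting error alone and no difference between cultures. Where 4 read numbers follow each other they stand in the order CTL, CTL+dox, gRNA2, gRNA2+dox.

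The guide is switched on by doxycycline, so this pair compares the cell pools without the induced knockout. Whether the guide acted in part without doxycycline was not tested. Vector, infection, sorting and culture history can all differ between such pools and cannot be told apart here. TCOF1 encodes treacle, a nucleolar protein that works with RNA polymerase I in the synthesis of ribosomal RNA. A guide directs Cas9 to a matching stretch of DNA that lies next to a short motif, the PAM, and the cut is repaired with errors that can disrupt the gene. The target of gRNA2 is shown because the pool is named for it. The 20 bases of the target are in lower case and the PAM is in capitals.
gRNA2 target: gggccggcgcctttccccaaGGG
It was found once on chromosome 5 of GRCh37, on the reverse strand at chr5:149754959-149754981, inside exon 11 of TCOF1, a coding exon of a canonical GENCODE transcript with 27.

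TCOF1 had 1019 and 754 reads in CTL and CTL+dox against 1318 and 437 in gRNA2 and gRNA2+dox. The gRNA2 library was the deeper one, so that at equal levels it holds 1.28 reads for each read of CTL. The log2 ratio of gRNA2 over CTL for TCOF1 was 0.02 after scaling (interval -0.10 to 0.14), against -0.74 in gRNA2+dox over CTL+dox. KIT, a receptor tyrosine kinase, had 27 and 31 reads in CTL and CTL+dox against 20 and 3 in gRNA2 and gRNA2+dox, a log2 ratio of -0.77 in gRNA2 over CTL with an interval of -1.70 to 0.10. FZD8, a WNT receptor, had 64, 49, 37 and 16 reads in the same order, a log2 ratio of -1.13 (-1.77 to -0.54). NOS2, the inducible nitric oxide synthase, had 10, 17, 9 and 0 reads, a log2 ratio of -0.48 (-1.98 to 0.95). The interval of FZD8 lay below 0 in this pair without doxycycline, and those of TCOF1, KIT and NOS2 included 0.

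The labelled line was checked against genes that mark it. SMAD4, which is deleted in MDA-MB-468, had at most 1 read in any library. EGFR, the growth factor receptor amplified in this line, had 54707 reads in CTL and 84853 in gRNA2. The basal keratins KRT5, KRT14, KRT6A, KRT6B, KRT16 and KRT17 each had between 31565 and 123805 reads in CTL and between 36001 and 156109 in gRNA2. The hormone receptor genes ESR1 and PGR had 10 and 7 reads in CTL and 4 and 0 in gRNA2. RB1 had 63 reads in CTL and 77 in gRNA2. SOX10 had 3 and 2. EGFR and the basal keratins were thus high and the hormone receptors near 0 in both pools, while SOX10, a marker of basal-like tumours, was also near 0. Levels of gene groups are given in CPM, reads scaled to library size. Of 16 white blood cell markers 3 (CD68, CSF1R and CD14) had enough reads to be compared, 5 had 0 reads in both libraries, and the summed level of the list was 156 CPM in CTL and 183 in gRNA2. Of 16 fibroblast and endothelial markers 7 could be compared, 3 had 0 reads in both, and the summed levels were 33.5 and 37.2 CPM.

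Reads on genes summed to 19960644 in CTL and 26322847 in gRNA2, and to 22467410 and 22168624 in CTL+dox and gRNA2+dox. A level of 3 reads is 0.147 CPM in CTL and 0.115 in gRNA2. The 15204 genes with at least 10 reads in at least 1 of the 4 libraries were compared, and the median log2 ratio over them was 0.03. A gene was called higher or lower where its log2 ratio passed 1 in size, a 2-fold difference, and where a bound of that ratio, the value that counting error alone would cross with 1% probability, passed 0.5. A gene whose bound was not 0 is described as beyond counting error, whether or not it passed these cutoffs.

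By these cutoffs 23 genes were higher in gRNA2 than in CTL (0.151% of the genes compared) and 63 were lower (0.414%). These counts depend on the filter and the cutoffs: they were 6 and 32 among genes with at least 50 reads in at least 1 library, 4 and 35 with a biological coefficient of variation of 0.1 added to each library, and 215 and 319 by the log2 ratio alone. The setting with added variation also took the bound from a normal approximation in place of the quantiles under counting error. How much each of these changes lowered the counts was not tested. For the same pools with doxycycline, a pair that shares no library with this one, 74 genes were higher (0.487%) and 156 lower (1.03%). In that pair TCOF1 is knocked out on the gRNA2 side, so pool and knockout cannot be told apart. Doxycycline alone in the CTL pool, a comparison that shares the CTL library with this one, gave 13 higher genes (0.0855%) and 26 lower (0.171%). A wider set of genes differed beyond counting error, 2517 higher in gRNA2 (16.6%) and 1389 lower (9.14%). Among the 7139 genes with at least 1000 reads in the pair these shares were 28.8% and 11.7%.

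**Figure D1:**
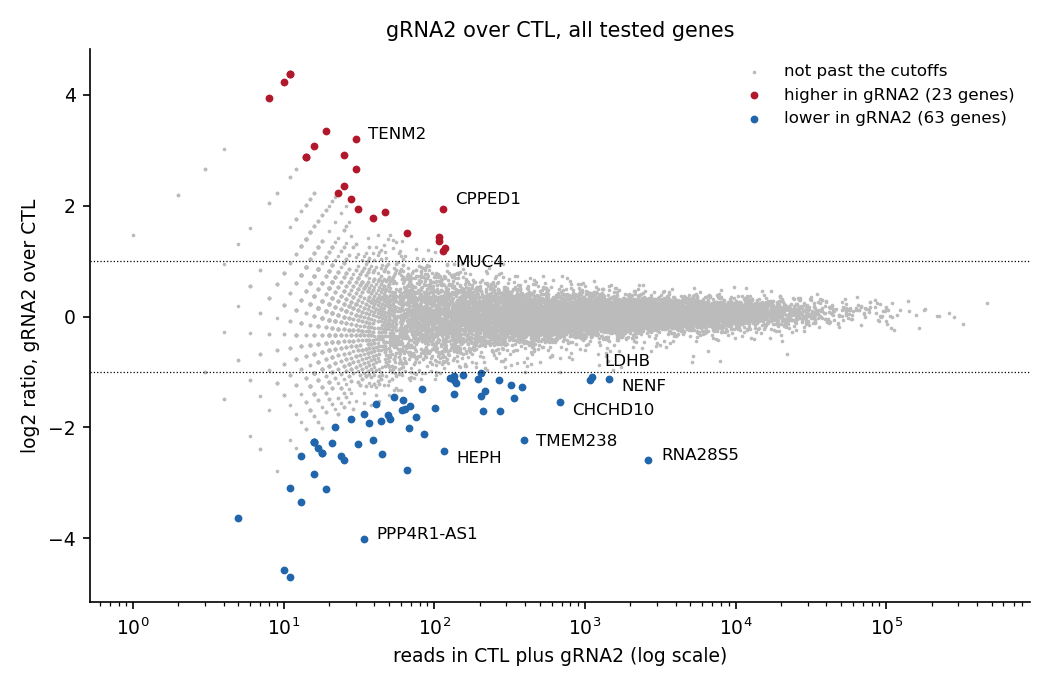
Log2 ratio of gRNA2 over CTL (vertical axis) against the reads of both libraries together (horizontal axis, log scale), 1 point for each of the 15204 genes, with dotted lines at log2 ratios of -1 and 1. The 23 higher genes (red) all lie at low read numbers, with at most 117 reads in the pair, and some of the 63 lower genes (blue) reach beyond 1000 reads.

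The lower genes are grouped by what their products are known to do, a grouping drawn after the values were seen, and 2 of them handle iron. HEPH, the iron-oxidising membrane protein hephaestin at chrX:66162671-66268863 (GRCh38), had 94 and 104 reads in CTL and CTL+dox against 22 and 7 in gRNA2 and gRNA2+dox. Its log2 ratio of gRNA2 over CTL was -2.42 (-3.19 to -1.76). Both gRNA2 libraries were low and both CTL libraries high, with no overlap. Both gRNA2 libraries lay below both CTL libraries in 20.5% of all genes compared and in 52 of the 63 lower genes. The lower genes were selected for a gRNA2 level below that of CTL, which fixes part of this in advance. SLC40A1, the iron exporter ferroportin, had 11 reads in CTL, 2 in CTL+dox and 0 in both gRNA2 libraries. Its level in gRNA2 was 4.68-fold lower when 0 reads are set to a floor of 3 per library. Such a floor fold is a convention and not a lower limit. The interval of its log2 ratio had an upper end of -1.68.

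RNF128, an E3 ubiquitin ligase, had 195 and 240 reads in CTL and CTL+dox against 76 and 37 in gRNA2 and gRNA2+dox, a log2 ratio of -1.70 (-2.11 to -1.32). TMEM47, a membrane protein of cell junctions, had 233, 287, 107 and 39 reads in the same order, a log2 ratio of -1.47 (-1.82 to -1.14), and was chosen after its value was seen. HEPH, RNF128 and TMEM47 lie on the X chromosome, which held 6 of the 63 lower genes (9.52%) against 3.22% of the genes compared, and 1 of the 23 higher ones.

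Among transcription factors, ELF5, a regulator of mammary luminal progenitors and alveolar cells at chr11:34478791-34513794, had 151 and 216 reads in CTL and CTL+dox against 59 and 39 in gRNA2 and gRNA2+dox, a log2 ratio of -1.70 (-2.17 to -1.26). MEOX1, a homeobox factor of the paraxial mesoderm, had 66, 33, 19 and 5 reads, a log2 ratio of -2.12 (-2.97 to -1.39). TWIST1, a driver of epithelial-mesenchymal transition, had 17, 27, 4 and 2 reads, a log2 ratio of -2.29 (-4.47 to -0.82), and was no longer called with the biological variation added. For each of these 3 factors both gRNA2 libraries lay below both CTL libraries, as in 20.5% of all genes compared. The 21 luminal genes that could be compared, of which ELF5 is one, did not move together: 10 were higher and 6 lower beyond counting error (16.6% and 9.14% of all genes compared), and their median log2 ratio was 0.05.

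Matrix genes were lower and higher. FBN1, the microfibril protein fibrillin, had 91 and 86 reads in CTL and CTL+dox against 44 and 30 in gRNA2 and gRNA2+dox, a log2 ratio of -1.39 (-1.95 to -0.87). FREM2, a basement membrane protein, had 139, 133, 65 and 41 reads, a log2 ratio of -1.44. COL14A1, a fibril-associated collagen, had 43, 53, 19 and 17 reads, a log2 ratio of -1.50. FREM2 and COL14A1 were chosen after their values were seen. COL6A1, a chain of the collagen of microfibrils, went the other way with 29, 50, 88 and 67 reads, a log2 ratio of 1.24 (0.63 to 1.91). COL6A1 and COL14A1 were no longer called when the libraries were thinned to the smaller total or the biological variation was added. TNC, the matrix protein tenascin C, had 5474, 6280, 9551 and 10551 reads and a log2 ratio of 0.45, beyond counting error and short of the cutoffs; it was chosen after its value was seen. Over the 38 mesenchymal and matrix genes 1 was called higher (COL6A1) and 2 lower (TWIST1 and FBN1). Beyond counting error 13 were higher and 3 lower (16.6% and 9.14% of all genes compared), and the median was 0.08, against 0.03 for all genes.

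Of 23 secreted and surface proteases 9 were lower and 3 higher beyond counting error (9.14% and 16.6% of all genes compared), and the median log2 ratio was -0.09. ADAMTS1, a metalloprotease that cleaves matrix proteoglycans, had 80 and 118 reads in CTL and CTL+dox against 47 and 19 in gRNA2 and gRNA2+dox, a log2 ratio of -1.11 (-1.67 to -0.58), and it was the only one of them called, a call that ended with the biological variation added. MMP7, the matrilysin, and PLAT, the tissue plasminogen activator, lay just outside the fold cutoff with log2 ratios of -0.997 and -0.993, and were picked after their values were seen. MMP7 had 243, 273, 155 and 130 reads and PLAT had 414, 371, 265 and 159. Called proteases outside this list went both ways and were picked after their values were seen. TMPRSS11A was higher with 5, 24, 26 and 15 reads, a log2 ratio of 1.94. PCSK5 was lower with 56, 41, 20 and 10 reads (-1.81), and CTRB1 with 15, 2, 3 and 11 (-2.47). PRSS12, the secreted protease neurotrypsin, stands in the list of neuronal genes and had 250, 317, 132 and 52 reads, a log2 ratio of -1.27 (-1.59 to -0.96). Over the 21 genes of that list 6 were higher and 4 lower beyond counting error (16.6% and 9.14% of all genes compared).

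The best-counted lower genes after ribosomal RNA were metabolic or secreted. LDHB, the lactate dehydrogenase subunit that favours lactate use, had 699 and 957 reads in CTL and CTL+dox against 419 and 185 in gRNA2 and gRNA2+dox, a log2 ratio of -1.09 (-1.27 to -0.91). LGALS1, the secreted lectin galectin-1, had 686, 1059, 396 and 281 reads, a log2 ratio of -1.14 (-1.33 to -0.96). NENF, the secreted factor neudesin, had 906, 837, 531 and 532 reads, a log2 ratio of -1.12 (-1.28 to -0.97). CHCHD10, a protein of the mitochondrial intermembrane space, had 475, 453, 207 and 269 reads, a log2 ratio of -1.55 (-1.79 to -1.31). For these 4 genes both gRNA2 libraries lay below both CTL libraries, as in 20.5% of all genes compared. LDHB, LGALS1 and NENF are outside the rule for named genes and were chosen for their read numbers after these were seen.

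TMEM238, a small membrane protein at chr19:55379244-55384292, had 308, 224, 84 and 107 reads, a log2 ratio of -2.22 (-2.59 to -1.87). WFDC2, a secreted protease inhibitor, had 208, 183, 113 and 86 reads, a log2 ratio of -1.23, and ATP12A, a proton pump, had 171, 176, 98 and 52 reads and -1.15; both were taken after their values were seen. PPP4R4, a regulatory subunit of protein phosphatase 4, had 37, 31, 8 and 1 reads, a log2 ratio of -2.48. MAPRE2, which binds growing microtubule ends, had 52, 36, 16 and 8 reads, a log2 ratio of -2.01. These 5 genes were lower past the cutoffs in the doxycycline pair as well.

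RNA28S5, a copy of the large ribosomal RNA, had the bound farthest from 0 of all genes compared. It had 2175 and 1032 reads in CTL and CTL+dox against 462 and 504 in gRNA2 and gRNA2+dox, a log2 ratio of -2.58 (-2.73 to -2.44). CTL stood above the other 3 libraries, CTL+dox included. Ribosomal RNA is present in many near-identical copies, STAR drops reads that fit several places, and the gene overlaps RNA45S5 in the annotation, so its count is uncertain. Reads that mapped to several places were 4.85% and 4.02% of the reads in CTL and CTL+dox and 4.57% and 3.39% in gRNA2 and gRNA2+dox, and how library preparation removed ribosomal RNA was not tested.

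The other lower genes with the largest bounds were thinly read. PPP4R1-AS1, an RNA antisense to PPP4R1, had 32, 17, 2 and 5 reads, and without strand its reads cannot be told from those of its partner. TXNDC5, a protein disulfide isomerase of the endoplasmic reticulum that overlaps BMP6 and a readthrough gene, had 56, 25, 10 and 7 reads. POF1B, an actin-binding epithelial protein on the X chromosome, had 17, 15, 2 and 8. TULP2, a tubby-like protein, had 10, 6, 0 and 7, 4.25-fold lower in gRNA2 by the floor, and its interval had an upper end of -1.52. LOC100506990, of unknown function, had 12, 3, 1 and 9. For TULP2 and LOC100506990 the gRNA2+dox library did not share the low level of gRNA2. CXCR4, a chemokine receptor, had 5, 11, 0 and 4 reads, 2.13-fold lower by the floor, and its interval had an upper end of -0.225. It was chosen because its gRNA2 count was 0. SLC40A1, TULP2, LOC100506990 and CXCR4 were no longer called with the biological variation added, a setting that also took the bound from a normal approximation.

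The higher genes were few and had few reads: the highest count of any of the 23 in either library was 95. CPPED1, a serine/threonine phosphatase at chr16:12659799-12803887, had 19 and 10 reads in CTL and CTL+dox against 95 and 49 in gRNA2 and gRNA2+dox, a log2 ratio of 1.95 (1.25 to 2.76). PNCK, a calmodulin-dependent kinase at chrX:153669733-153687771, had 8, 4, 39 and 22 reads, a log2 ratio of 1.88 (0.82 to 3.24). MUC4, a membrane mucin of epithelia, had 29, 24, 85 and 70 reads, a log2 ratio of 1.19 (0.58 to 1.86). These 3 were the only higher genes that also passed the cutoffs in the doxycycline pair, where their log2 ratios were 2.28, 2.36 and 1.57. MUC4 is outside the rule for named genes, and its call ended under DESeq2 size factors, totals, thinning, the added variation and centring by GC content and length. With the added variation the 4 higher genes still called were CPPED1, ERVV-1, KCNJ15 and TENM2.

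FLG, the filaggrin of the cornified layer, had 25 and 34 reads in CTL and CTL+dox against 83 and 53 in gRNA2 and gRNA2+dox, a log2 ratio of 1.36 (0.72 to 2.09), and it overlaps the antisense gene FLG-AS1. ERVV-1, an envelope gene of an endogenous retrovirus with a close copy in ERVV-2, had 24, 42, 84 and 56 reads, a log2 ratio of 1.44. TENM2, a teneurin of cell adhesion, had 2, 9, 28 and 17 reads, a log2 ratio of 3.20 (1.47 to 6.57). In FLG, ERVV-1 and TENM2 the gRNA2 libraries were the highest, as in 24.8% of all genes compared, and the doxycycline pair did not pass the cutoffs.

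KCNJ15, an inward rectifier potassium channel, had 3, 5, 27 and 8 reads. COLCA2, a gene of a colorectal cancer risk locus, had 1, 3, 18 and 3, and only the gRNA2 library stood out. SYT5, a synaptotagmin of vesicle release, had 1, 12, 15 and 11. LMO7-AS1, antisense to LMO7, had 3, 16, 22 and 9, and ANO3, an anoctamin, had 1, 4, 13 and 9. In SYT5 and LMO7-AS1 the CTL library alone was low and the CTL+dox library lay among the gRNA2 ones.

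Of the genes with 0 reads in CTL, NEGR1, a neuronal adhesion protein, had 0, 11 and 4 in the other libraries. RAPSN, which clusters acetylcholine receptors, had 7, 11 and 7 in them. NEGR1 and RAPSN were each 2.87-fold higher in gRNA2 by the floor, and the interval of each log2 ratio had a lower end of 0.98. LOC101926935 had 1, 10 and 8, 2.61-fold higher by the floor with a lower end of 0.81. JCHAIN, the joining chain of antibodies, had 2, 8 and 10, 2.09-fold higher by the floor with a lower end of 0.42. LOC101926935 and ANO3 were no longer called after thinning.

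**Figure D2:**
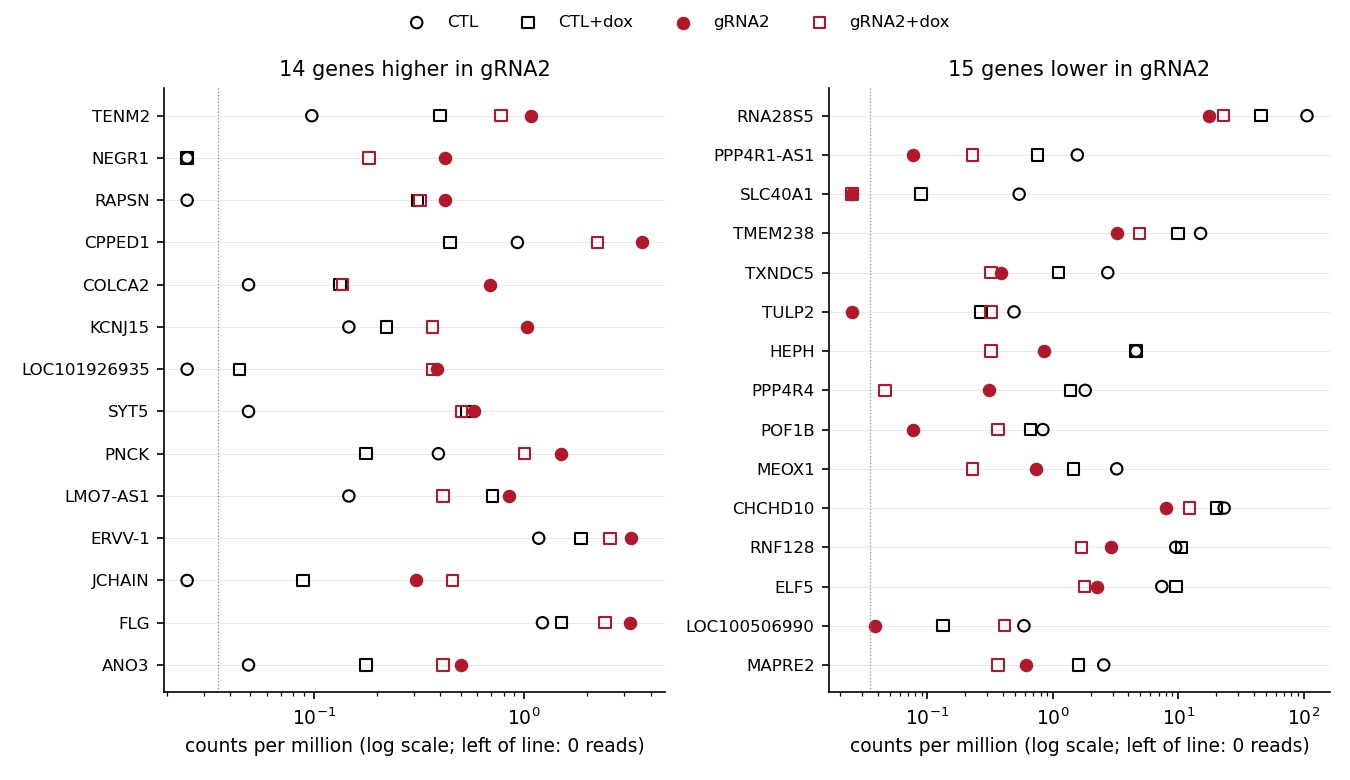
Levels in CPM (log scale) of 14 of the 15 higher genes and the 15 lower genes with the bound farthest from 0, 1 marker for each of the 4 libraries, with 0 reads drawn left of the dotted line. HEPH, RNF128 and ELF5 show both gRNA2 libraries below both CTL libraries, while SYT5 and RAPSN show the CTL library alone at the low end.

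Taken as lists, the 23 higher genes had a median log2 ratio of 2.36, or 1.94 with 0 reads set to the floor. Their median was 28 reads in the pair. The 63 lower genes had a median of -1.85, or -1.81 with the floor, and a median of 62 reads. Under 50 reads in the pair were held by 17 of the 23 higher and 28 of the 63 lower genes, against 13.6% of all genes compared. Each group is thus described best by its members with more reads, 5 higher and 24 lower genes with at least 100.

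The doxycycline pair gave the same measure in other libraries. Of the 63 lower genes 52 had a log2 ratio below 0 there (49.8% of all genes compared did), 40 were lower beyond counting error (16.7% of all genes) and 29 passed the cutoffs (1.03%). These 29 are 46.0% of the lower genes here and 18.6% of the 156 lower genes of the doxycycline pair. Of the 24 lower genes with at least 100 reads 17 passed in both. Of the 23 higher genes 16 had a log2 ratio above 0 there (50.2% of all), 5 were beyond counting error (18.2%) and 3 passed (0.487%). No gene passed the cutoffs in opposite directions in the 2 pairs.

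The 29 genes lower in both pairs had a median log2 ratio of -1.64 in gRNA2 over CTL and -2.32 in gRNA2+dox over CTL+dox, and for 26 of them the ratio was farther below 0 in the doxycycline pair. They include HEPH, RNF128, ELF5, TMEM47, LDHB, LGALS1, PRSS12, ADAMTS1, FBN1 and TWIST1. The other 34 lower genes had a median of -0.47 in the doxycycline pair. RNA28S5, CHCHD10 and NENF are among these 34, with log2 ratios there of -0.99, -0.71 and -0.61, each beyond counting error. In 28 of the 34 genes CTL+dox lay below CTL, and in 16 of the 29 it lay at or above CTL. Of the 23 higher genes 18 had CTL+dox above CTL. Among all 15204 genes compared, the log2 ratio of CTL+dox over CTL was below 0 in 7255 and above 0 in 7947. The called genes were selected by their CTL level, which fixes part of this in advance.

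Whether a gene shares genomic sequence with another listed gene moved with this split. Of the 29 lower in both pairs 5 overlap another gene of the annotation (17.2%), of the other 34 it was 18 (52.9%), and of all genes compared 34.3%. Among the 34 are PABPN1, HSPE1, GNG3 and TMEM56-RWDD3, which overlap a readthrough transcript or one of its parent genes; they were named after the split was seen. HSPE1, the small partner of the mitochondrial chaperonin, had 49 and 36 reads in CTL and CTL+dox against 20 and 25 in gRNA2 and gRNA2+dox. STAR sets reads that fall on overlapping genes aside as ambiguous, 2.12% of the reads of CTL and 2.09% of gRNA2, and the part of this in the ratios was not tested.

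**Figure D3:**
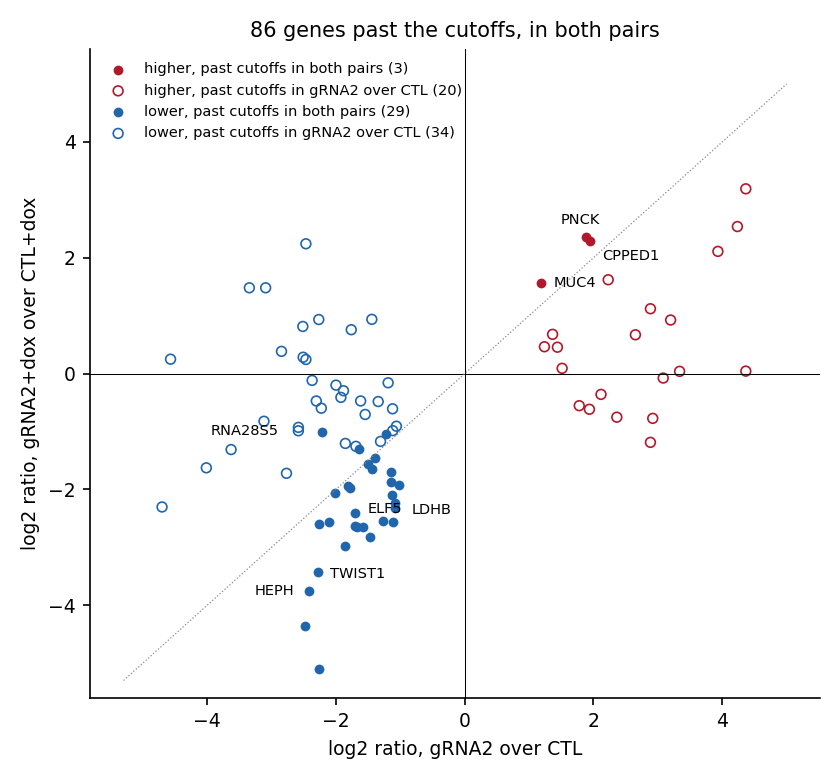
Log2 ratio in gRNA2+dox over CTL+dox (vertical axis) against that in gRNA2 over CTL (horizontal axis) for the 23 higher (red) and 63 lower genes (blue), filled where the cutoffs were passed in both pairs, with a dotted line of equal ratios. The 29 filled blue points lie mostly below the dotted line, and CPPED1, PNCK and MUC4 are the 3 filled red points.

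Gene lists of known processes had medians of small size. Their counts beyond counting error are to be read against the shares of all genes, 16.6% higher and 9.14% lower, and against 44.5% of all genes with a log2 ratio below 0. These shares beyond counting error were larger in well-read genes, 28.8% and 11.7% with at least 1000 reads in the pair. A list of well-read genes is to be read against the larger shares. The largest list median was that of interferon-gamma-type genes. Interferon-gamma switches on genes of antigen processing, guanylate-binding proteins and tryptophan catabolism, and epithelial tumour cells can express them. Of the 27 members compared none passed the cutoffs, 14 were higher and 1 lower beyond counting error, and 23 were above 0, with a median log2 ratio of 0.29 against 0.03 for all genes.

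GBP5, a guanylate-binding protein, had 152 and 132 reads in CTL and CTL+dox against 306 and 829 in gRNA2 and gRNA2+dox, a log2 ratio of 0.66 in gRNA2 over CTL (0.37 to 0.95). GBP1, of the same family, had 184, 210, 356 and 961 reads, a log2 ratio of 0.60 (0.34 to 0.87). WARS, the tryptophanyl-tRNA synthetase, had 12785, 14671, 21640 and 20982 reads, a log2 ratio of 0.41 (0.38 to 0.44). IDO1, which degrades tryptophan, had 893, 1127, 1533 and 3548 reads, a log2 ratio of 0.43 (0.31 to 0.55). In GBP1, GBP5 and IDO1 gRNA2 lay above both CTL libraries and gRNA2+dox higher still. Both gRNA2 libraries lay above both CTL libraries in 24.8% of all genes compared. SOCS1, the feedback inhibitor of interferon signalling and the member that was lower, had 631, 822, 616 and 912 reads and a log2 ratio of -0.39. It was named for being the exception. In gRNA2+dox over CTL+dox the list had a median of 0.85, with 12 members past the cutoffs and 26 higher beyond counting error. In CTL+dox over CTL, which shares CTL, the median was -0.06 with 4 higher and 1 lower beyond counting error.

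Genes of antigen presentation showed the same measure with a median of 0.21 over 28 members, 15 higher and 0 lower beyond counting error and none past the cutoffs. CD74, the invariant chain of class II molecules, had 225, 265, 479 and 599 reads, a log2 ratio of 0.74 (0.51 to 0.97). HLA-DPA1, a class II chain, had 103, 129, 211 and 206, a log2 ratio of 0.68 (0.34 to 1.04). HLA-B, a class I heavy chain, had 11950, 14524, 19491 and 22377, a log2 ratio of 0.35 (0.32 to 0.39), and TAPBP, which loads peptides onto class I, had 5579, 5553, 8812 and 7279, a log2 ratio of 0.31 (0.26 to 0.36). Both gRNA2 libraries were above both CTL libraries for these 4 genes after scaling, as in 24.8% of all genes compared. The HLA genes are highly similar in sequence, so reads between them may be split or lost.

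The 44 interferon-stimulated antiviral genes had a median of 0.10, with 9 higher and 2 lower beyond counting error, near the 16.6% and 9.14% of all genes. IFITM3, which blocks virus entry, had 2095 reads in CTL and 3473 in gRNA2, a log2 ratio of 0.38. IFITM1, of the same family as IFITM3, had 431 and 699 and a log2 ratio of 0.35, and ISG20, an exonuclease, had 567 and 876 and a log2 ratio of 0.28.

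The promoters of these genes were searched on both strands for GAAA followed by any 2 bases and GAAA again, the core of the interferon-stimulated response element, within 250 bases before the start site. RefSeq promoters on GRCh38.p14 hold it in 3.02% of 35116 entries. Counted by gene, as for the lists below, it was present for 394 of the 11850 compared genes with an entry (3.325%). It was present for 6 of the 15 interferon-gamma-type genes with an entry, for 8 of 24 antigen presentation genes and for 22 of 34 antiviral genes. Of these, 2, 6 and 6 in turn were higher beyond counting error in gRNA2, so the list with the most matches was not the one with the largest median. The stretches of GBP1 and WARS are shown because these were the 2 matched interferon-gamma-type genes that were higher beyond counting error. The other matched members, SOCS1, CD274, IL18BP and TNFSF10, were not. Each stretch has 25 bases on either side and the match in capitals, read in the direction of the gene.
GBP1, chr1:89065301-89065360, reverse strand: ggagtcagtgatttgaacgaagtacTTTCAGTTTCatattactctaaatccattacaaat
WARS, chr14:100375368-100375427, reverse strand: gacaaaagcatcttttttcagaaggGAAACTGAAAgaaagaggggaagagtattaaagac
The matches end 118 and 46 bases before the start sites of the promoter entries used. The stretch of WARS lies inside the extent of its gene (chr14:100333790-100376327), so its entry is that of an internal start site. A match describes the letters alone and not binding of a factor.

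Immediate early and ERK feedback genes, which respond fast to growth factor signals, had a median log2 ratio of 0.12 against 0.03 for all genes. Of 37 members 20 were higher and 2 lower beyond counting error (16.6% and 9.14% of all genes), and none passed the cutoffs. EGR1, a zinc finger factor, had 1042 and 976 reads in CTL and CTL+dox against 1809 and 1237 in gRNA2 and gRNA2+dox, a log2 ratio of 0.44 (0.33 to 0.56). FOSB and FOSL1, both AP-1 subunits, had 774, 750, 1351 and 959 reads and 7560, 7933, 12277 and 9590 reads, with log2 ratios of 0.45 and 0.35. SPRY4, a feedback inhibitor of the pathway, had a log2 ratio of 0.29. DUSP5 and CCND1 were the 2 lower members, with log2 ratios of -0.23 and -0.18, named as the exceptions. In the doxycycline pair 17 members were higher and 6 lower beyond counting error.

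Receptors and ligands of the EGFR family gave no common direction. EGFR had a log2 ratio of 0.28 and its ligand amphiregulin (AREG) 0.21, while epiregulin (EREG), with 546 and 577 reads in CTL and CTL+dox against 493 and 328 in gRNA2 and gRNA2+dox, had -0.50, and TGFA had -0.11. The median over the 13 members was 0.04. NF-kappa-B genes had 10 of 23 members higher and 2 lower beyond counting error with a median of 0.10, led by the subunits REL and RELA with log2 ratios of 0.34 and 0.23. TNIP1, a brake on the pathway, and LCN2, a secreted iron-chelator carrier, each had 0.18. Of 41 chemokines and cytokines 8 were higher and 3 lower beyond counting error. CXCL5, a neutrophil attractant, had 51, 37, 32 and 136 reads, a log2 ratio of -1.01 in gRNA2 over CTL and 1.91 in the doxycycline pair. LIF, a cytokine of the interleukin 6 family, had a log2 ratio of -0.34, CXCL16 had 0.31 and IL1RN, the interleukin 1 receptor antagonist, 0.16.

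Both cell cycle lists had medians below 0. Of 40 genes of G2 and M phase 31 were below 0 (44.5% of all genes), 11 were lower and 1 higher beyond counting error (9.14% and 16.6% of all genes), and the median log2 ratio was -0.11. CDK1, the mitotic kinase, had 637 and 752 reads in CTL and CTL+dox against 593 and 430 in gRNA2 and gRNA2+dox, a log2 ratio of -0.45 (-0.62 to -0.29). CCNB1, its cyclin, had 328, 445, 304 and 237 reads and -0.46, TOP2A, the mitotic topoisomerase, -0.39, and BUB1B, of the spindle checkpoint, -0.48. By the same measures 27 of 36 S phase genes were below 0, 8 were lower and 1 higher beyond counting error, with a median of -0.07. PCNA, the sliding clamp, had a log2 ratio of -0.22, SLBP, which binds histone mRNA, -0.24 and CCNE2, a cyclin of the G1 to S step, -0.23. In the doxycycline pair the medians of these lists were -0.45 and -0.32. Of 14 histone genes 3 were lower beyond counting error, HIST1H2BD, HIST1H2BK and HIST1H2AC, which have near-identical copies, with a median of -0.15 over the list.

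The RNA polymerase I and nucleolar genes had a median of 0.04, with 7 of 32 higher and 3 lower beyond counting error. These were near the values of all genes (0.03, 16.6% and 9.14%). The members with the bound farthest from 0 are given as values. PES1, which matures the large ribosomal subunit, had a log2 ratio of 0.25, UTP20, of the small subunit processome, 0.43, POLR1A, the largest subunit of the polymerase, 0.29 and NOP56, a core protein of small nucleolar particles, -0.18.

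Of 38 WNT and frizzled genes 8 were lower and 3 higher beyond counting error, with a median of -0.08. Beside FZD8, the ligand WNT5B had 190 and 207 reads in CTL and CTL+dox against 132 and 84 in gRNA2 and gRNA2+dox, a log2 ratio of -0.87 (-1.21 to -0.55). The receptor FZD7 had 1489, 1657, 1446 and 993 reads and -0.39, and LGR6, a receptor for R-spondins, had -0.45. In each of these 4 genes both gRNA2 libraries were below both CTL libraries, as in 20.5% of all genes compared. Notch genes had 4 of 19 lower and 3 higher beyond counting error. Their effectors HES4, HES2 and HES1 had log2 ratios of -0.71, -0.42 and -0.22, and the receptor NOTCH2 had 0.29. Of 33 BMP and TGF-beta genes 6 were higher and 5 lower beyond counting error, with log2 ratios of -0.75 for BMP6, -0.47 for BMP7, 0.44 for TGFB1 and 0.22 for the TGF-beta-induced gene TGFBI.

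Markers of breast cancer stem cells lay in both directions. ALDH1A1, an aldehyde dehydrogenase, had 2824 and 3781 reads in CTL and CTL+dox against 2653 and 2740 in gRNA2 and gRNA2+dox, a log2 ratio of -0.44 (-0.52 to -0.36). PROM1, the surface antigen CD133, had 1087, 1182, 1015 and 671 reads, a log2 ratio of -0.45 (-0.57 to -0.33). CD44, the hyaluronan receptor, had 32901, 36276, 51594 and 39687 reads, a log2 ratio of 0.30 (0.28 to 0.32). PDGFRA, a receptor tyrosine kinase, had 35, 47, 87 and 88 reads, a log2 ratio of 0.95 (0.38 to 1.57). Of 31 members 8 were higher and 5 lower beyond counting error and none passed the cutoffs.

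Squamous genes were likewise split, with 12 higher and 11 lower of 48 beyond counting error, FLG the only one past the cutoffs, and a median of 0.01. KRT10, a keratin of differentiated epidermis, had 1037 and 1126 reads in CTL and CTL+dox against 702 and 1124 in gRNA2 and gRNA2+dox, a log2 ratio of -0.91 (-1.05 to -0.77), and gRNA2 alone was low. SERPINB3 and SERPINB4, near-identical protease inhibitors of the serpin family whose reads may be split, had log2 ratios of 0.51 and 0.52. These 3 were named after their values were seen.

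Metabolic and stress lists had medians near that of all genes. For hypoxia and glycolysis the median was 0.02 (10 of 35 higher and 5 lower beyond counting error), with 0.38 for NDRG1, 0.51 for the carbonic anhydrase CA9, 0.17 for ALDOA and -0.19 for DDIT4. For cholesterol and fatty acid synthesis it was -0.00 (8 of 32 higher, 5 lower), with -0.44 for ELOVL6, 0.13 for SCD, 0.13 for FASN and 0.14 for HMGCS1. For ATF4 and unfolded protein genes it was 0.02 (8 of 32 higher, 6 lower), with -0.34 for CEBPG, -0.26 for SLC3A2, -0.24 for PSAT1 and 0.15 for HSPA5. For NRF2 targets it was -0.01 (7 of 28 higher, 6 lower), with -0.45 for AKR1C1, -0.28 for AKR1B1, -0.23 for SRXN1 and 0.25 for the ferritin heavy chain FTH1. For p53 targets it was -0.04 (3 of 24 higher, 3 lower), with -0.21 for PHLDA3, -0.33 for TP53I3, 0.21 for AEN and 0.07 for CDKN1A.

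HOX and homeobox genes had a median of 0.14, with 9 of 37 higher and 1 lower beyond counting error (16.6% and 9.14% of all genes). The median was 0.02 with no filter on low reads. HOXB3 had 188 reads in CTL and 333 in gRNA2 and HOXB9 had 26 and 62, with log2 ratios of 0.47 and 0.89, while PITX1, the lower one, had -0.25. In the doxycycline pair these ratios were -0.10 for HOXB3 and -0.60 for HOXB9. Of 13 cancer-testis genes 2 were higher beyond counting error, CSAG1 with 0.35 and MAGEA12 with 0.14.

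Some differences short of the 2-fold cutoff rest on many reads. BTG1, an antiproliferative factor, had 4564 and 4649 reads in CTL and CTL+dox against 3334 and 3944 in gRNA2 and gRNA2+dox, a log2 ratio of -0.80 (-0.87 to -0.74). SERPINA1, the elastase inhibitor alpha-1 antitrypsin, had 2992, 2522, 2162 and 1202 reads and -0.82 (-0.90 to -0.74). PPBP, a platelet-type chemokine, had 12203, 18325, 9688 and 10251 reads and -0.68 (-0.72 to -0.65). S100A2, a calcium-binding protein of basal epithelium, had 920, 1340, 604 and 367 reads and -0.96 (-1.11 to -0.81). Upward, MT2A, a metallothionein, had 3448, 4344, 6339 and 5283 reads and 0.53 (0.47 to 0.59), MUC16, a membrane mucin, had 831, 737, 1578 and 1275 reads and 0.57 (0.45 to 0.70), and CEACAM1, an adhesion protein, had 6237, 6863, 10953 and 9503 reads and 0.46 (0.42 to 0.51). For all 7 genes the gRNA2 libraries lay on one side of the CTL libraries after scaling, as was the case for 24.8% of all genes upward and 20.5% downward. They were chosen for their read numbers and ratios after these were seen.

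Counting error was the smaller part of the spread between well-counted genes. Among 922 genes with at least 10000 reads in the pair the median distance of the log2 ratio from the all-gene median was 0.0886, where counting alone would give 0.0154. For the same genes this distance, from the all-gene median of each comparison, was 0.0857 in CTL+dox over CTL and 0.125 in gRNA2+dox over CTL+dox. No gene of these 922 passed the 2-fold line, and in the range of 100 to 300 reads 24 of 1949 did. A difference of a few hundredths in a well-counted gene can thus be beyond counting error and still be within the spread of these 3 comparisons.

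Transcript length moved with the ratio to a small extent. With the genes divided into 10 groups by transcript length, the median log2 ratio was 0.02 in the shortest group and 0.09 in the longest, and in the doxycycline pair -0.07 and 0.12. Across 10 groups of GC content the medians lay between 0.02 and 0.05. By chromosome the medians lay between -0.004 for chromosome 8 and 0.06 for chromosome 5. In windows of 25 neighbouring genes with at least 100 reads, the medians of 2300 windows lay between -0.13 and 0.18. The highest, on chromosome 19 from PSMC4 to BCKDHA (chr19:39971165-41425002 of GRCh38), had 6 of 25 genes below 0 and a median of 0.10 in the doxycycline pair. The lowest was on chromosome 19 from ZNF507 to ZNF792 (chr19:32345610-34964229 of GRCh38), where 20 of 25 genes were below 0. In the doxycycline pair the median of this window was -0.22, with 21 of 25 genes below 0, and it was -0.01 in CTL+dox over CTL. Both windows were chosen for their values, and gene copy number was not measured.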

How the data were processed

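RNA-seq of 4 libraries was used, 1 per condition. By the study's methods, adaptors were trimmed with fastp and reads were aligned and counted with STAR. The submitters' processing notes name the build hg38. The deposited values are whole-number counts per gene, not normalized, and the unstranded counts of 26475 gene symbols were used without the 4 leading rows of unassigned reads. No version or annotation is given in the sources used here. Counts were scaled with TMM (edgeR 4.0.16, R 4.3.3), and 0.5 was added to the counts, in proportion to library size, before log2 ratios were taken. A bound stands in for GFOLD, which the authors used: with Poisson error on both counts, whichever of the 1% and 99% quantiles of the log2 ratio is nearer 0. Its computation was checked on counts simulated with the same Poisson error (Python 3.11.15, with scipy 1.17.1 and numpy 2.4.6). Such counts cannot show how well that error describes these libraries. The members and the 31 gene lists were chosen with earlier results of these data known. Genes named are TCOF1, KIT, FZD8, NOS2, markers of the line, the 15 called genes per direction with the bound farthest from 0 and, per list, called members or else up to 4 with the farthest bound. The text says where another gene was picked after its value was seen. Gene positions are RefSeq's on GRCh38.p14, the files' build (98.1% of genes matched by symbol). Transcript lengths, GC content and the guide site come from GRCh37 with GENCODE 44. Alternatives were other scalings (DESeq2 1.42.0 size factors, totals), filters, thinning, a prior count of 5, other bounds, an added biological variation and centring by GC content and length. With the added variation the bound came from a normal approximation in place of the Poisson quantiles. Some genes that the rule names are not reported here.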

Additional observations from a re-analysis of the deposited data

How the results depend on the processing

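No paired analysis was possible because there is a single library a side, without replicate numbers, and none could be left out. The 23 higher and 63 lower genes became 6 and 32 with at least 50 reads in at least 1 library, where fewer genes were compared, 70 and 124 with the bound at the 5% quantile, 215 and 319 with the log2 ratio alone, and 4 and 35 with a biological coefficient of variation of 0.1 added to each library and a normal approximation for the bound. For the doxycycline pair the 74 higher and 156 lower genes became in the same order 42 and 98, 138 and 263, 297 and 475, and 46 and 86. Under DESeq2 size factors, totals, no filter, thinning, a prior count of 5 and centring by GC content and length, counts stayed within 1.5 times. Thinning to the smaller total kept 16 of the 23 higher and 46 of the 63 lower genes. Among the genes described it took LOC101926935, ANO3, COL6A1, MUC4, COL14A1, CXCR4, GNG3 and PABPN1 out of the calls, and FZD8 passed the cutoffs under totals, with a log2 ratio of -1.18. Of 145 named genes that were compared, 5 with ratios near 0 (TCOF1, KRT6A, KRT17, CDH3 and EPCAM) changed sign under at least 1 scaling, thinning or centring, and no called gene did. The medians of the interferon-gamma-type (0.24 to 0.31), antigen presentation (0.17 to 0.22), immediate early (0.07 to 0.12) and G2 and M phase genes (-0.16 to -0.10) kept their sign in the 7 settings tried for them. The HOX median fell to 0.02 with no filter, where members with few reads entered. Medians of lists near 0 changed sign for 4 lists under DESeq2 size factors and for 6 under totals. Of the 23 higher genes 17 had under 50 reads in the pair.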
